A study of Homo sapiens with 9 samples.

Results

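QPCT and STRADB were examined in VCaP cells, a prostate cancer cell line with an epithelial character, after transfection of siRNAs against IGF1R-AS1, a noncoding RNA transcribed antisense to IGF1R, both directed at its exon 1. Both genes were chosen because each of the siRNAs, labelled si025 and si033, raised them by a similar amount over the control. QPCTL, the paralog of QPCT, and STRADA, STK11 and CAB39, the paralog and the binding partners of STRADB, were chosen by their function for comparison. The 6 genes were taken from the 19918 genes counted, and all 6 were among the 12810 genes that passed the filter on low counts. The 9 libraries formed 3 groups of 3: cells given si025, cells given si033, both labelled IGF1R-AS1 knockdown, and control cells, with the genotype label WT. Per the labels, 100 pmol of siRNA was delivered by reverse transfection with RNAiMAX and cells were harvested after 72 h. The labels did not say whether the replicates came from separate cultures. The paper's legend for its knockdown RNA-seq gives 3 biological replicates but not how they were separated. The p-values measure only the spread between these libraries, which may be partly technical. A single cell line was used, and the targeted transcript IGF1R-AS1 was not analysed here.

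QPCT encodes glutaminyl-peptide cyclotransferase, a secreted enzyme that converts an N-terminal glutamine or glutamate of peptides and proteins to pyroglutamate, which protects hormones and chemokines from aminopeptidases. QPCTL encodes the related enzyme held in the Golgi, which acts on proteins passing through the secretory pathway, including CD47. STRADB and STRADA encode pseudokinases that bind the tumour suppressor kinase LKB1 (STK11) together with the scaffold MO25 (CAB39). Within this complex LKB1 is active and phosphorylates AMPK, the kinase that senses low cellular energy, and a family of AMPK-related kinases.

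The libraries held between 11649811 and 28492259 counted fragments, and 14735 to 15474 genes had at least 1 count. All 10 epithelial and prostate markers checked were above 1 CPM (the scaled share of a library's counts) in every library, with sums of 6470 to 6702 CPM in the control, 6702 to 6973 CPM with si025 and 5631 to 5946 CPM with si033. Summed fibroblast, leukocyte and endothelial markers reached at most 4.16, 1.67 and 2.34 CPM in any library. Differences between groups were broad: 61.9% of tested genes differed between si025 and control at an adjusted p under 0.05, 55.0% between si033 and control and 61.0% between the siRNAs. In bulk RNA, fewer cells of a type and less RNA per cell cannot be told apart.

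QPCT (hg38, chr2:37344610-37373322, plus strand; 7 merged exons) was at 4.63, 5.80 and 5.25 CPM in the control libraries. It was at 24.3, 22.8 and 25.3 CPM with si025 and at 18.6, 23.6 and 20.1 CPM with si033. All 6 knockdown libraries lay above all 3 control libraries, as they did for 16.6% of tested genes (16.3% had all 6 below), and the si025 and si033 ranges overlapped through si033 replicate 2. These values rested on 53 to 136 counts per control library and 226 to 582 counts per knockdown library. The fitted log2 fold change was 2.20 (SE 0.10) with si025, a 4.59-fold higher level, and 1.98 (SE 0.11) with si033, a 3.93-fold higher level. The log2 difference between the siRNAs was 0.22 (SE 0.08), with si025 the higher, so the rise of QPCT was similar with both siRNAs but less even than that of STRADB. These values chose the gene and carry no test.

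STRADB (chr2:201451669-201480851, plus strand; 12 merged exons) was at 9.86, 8.19 and 8.23 CPM in the control libraries. It was at 33.7, 29.9 and 32.5 CPM with si025 and at 31.8, 30.9 and 33.5 CPM with si033. The groups given siRNA overlapped almost fully, and neither overlapped the control. Between 113 and 213 counts stood behind each control value and between 386 and 971 behind each knockdown value. The log2 fold change was 1.89 (SE 0.08) with si025 and 1.90 (SE 0.08) with si033, or 3.70-fold and 3.74-fold, and the siRNAs differed by -0.02 (SE 0.07) on the log2 scale. STRADB was likewise chosen on these values. GENCODE lists the pseudogenes STRADBP1 and CAB39P1, and the deposited command left out fragments that map equally well to several places, so the levels of STRADB and CAB39 are uncertain to that extent.

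**Figure D1:**
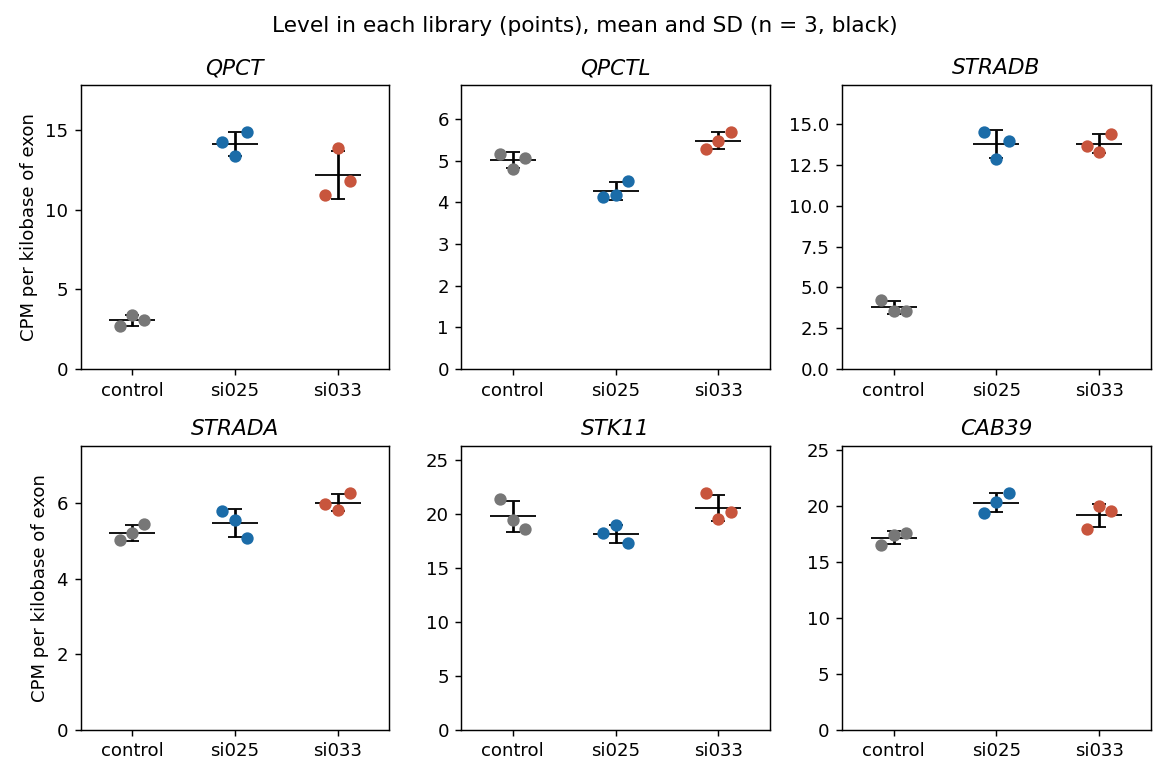
The level of each of the 6 genes in CPM per kilobase of exon (vertical axes, from 0) is drawn for every control, si025 and si033 library as a point, with the group mean and SD (n = 3) in black. QPCT and STRADB stand at 2.72 to 4.25 in all control libraries and at 10.9 to 14.9 in all knockdown libraries, whereas QPCTL keeps group means of 4.27 to 5.49, STRADA of 5.22 to 6.01, CAB39 of 17.2 to 20.3 and STK11 of 18.2 to 20.6.

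Of 12810 tested genes, 15.2% were called higher with both siRNAs. When genes were ordered by the smaller of their log2 fold changes, QPCT stood at position 9 and STRADB at position 13. By either siRNA alone they ranked lower, QPCT at 52 with si025 and 62 with si033, and STRADB at 103 and 72. Genes called higher with both siRNAs and with log2 fold changes within 0.25 of each other numbered 1217, or 9.50% of those tested. Among these QPCT stood at position 2 and STRADB at position 3 by the smaller log2 fold change, behind SLCO3A1, which had only 0.12 CPM in the control. The 10 highest also held TMCO1, MDK, RAB6B, LRP4, FBN2, JAZF1 and SCRN1. TMCO1, an endoplasmic reticulum calcium channel, had log2 fold changes of 1.91 with si025 and 1.78 with si033 from a control mean of 25.6 CPM. MDK, the heparin-binding growth factor midkine, had 1.84 and 1.74 from 89.9 CPM. RAB6B, a small GTPase of Golgi traffic, had 1.47 and 1.46 from 16.9 CPM. LRP4, FBN2, JAZF1 and SCRN1 had means of 0.20 to 2.07 CPM in the control. Both siRNAs were compared with the same 3 control libraries, so a deviation shared by those libraries would enter both fold changes alike.

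**Figure D2:**
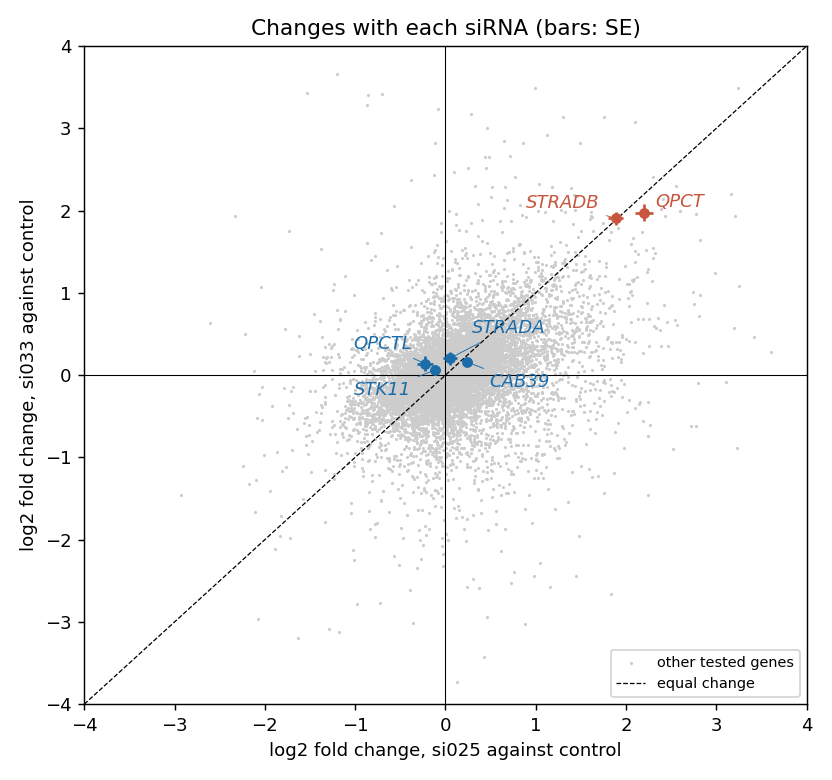
Log2 fold changes against control with si025 (horizontal) and si033 (vertical) are drawn for the tested genes as grey points, with the 6 genes named and bars of 1 SE; the dashed line marks equal change, and 6 genes lie beyond the axes at 4. QPCT and STRADB lie near the line at about 2 on both axes, and QPCTL, STRADA, STK11 and CAB39 lie within 0.25 of 0 on both.

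QPCTL (chr19:45692402-45703990, plus strand) did not follow QPCT. It was at 12.5, 11.6 and 12.3 CPM in the control, 9.97, 10.1 and 10.9 CPM with si025 and 12.8, 13.2 and 13.7 CPM with si033. With si025 all 3 libraries were below the control, a log2 fold change of -0.22 (SE 0.09; edgeR quasi-likelihood test, Benjamini-Hochberg adjusted p = 0.034). This call was not stable: it was lost without si025 replicate 1 (-0.21) or 2 (-0.20), without control replicate 1 (-0.21) or 3 (-0.22), and in 3 of the 6 other settings, with adjusted p between 0.024 and 0.096 over the 15 alternatives. With si033 all 3 libraries were above the control, but the log2 fold change of 0.14 (95% interval -0.04 to 0.32) did not pass (adjusted p = 0.19). The siRNAs differed from each other by -0.36 on the log2 scale (SE 0.09, adjusted p = 0.00089), with si025 the lower, as for 29.8% of tested genes; 31.2% were higher with si025.

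STRADA (chr17:63702832-63741970, minus strand) was at 16.5, 17.1 and 17.9 CPM in the control, 19.1, 18.3 and 16.7 CPM with si025 and 19.6, 19.1 and 20.6 CPM with si033. The si025 libraries overlapped the control, with a log2 fold change of 0.05 (95% interval -0.11 to 0.21, adjusted p = 0.61). The si033 libraries were all above it, by 0.20 (SE 0.08, adjusted p = 0.027). That call was lost without si033 replicate 3 (0.16), without control replicate 1 (0.19) or 2 (0.20), and with DESeq2. The difference between the siRNAs, -0.16, did not pass (95% interval -0.31 to -0.0004, adjusted p = 0.077).

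STK11 (chr19:1205799-1228435, plus strand), the kinase of the complex, was at 81.9, 74.3 and 71.1 CPM in the control, 69.9, 72.5 and 66.1 CPM with si025 and 84.0, 74.9 and 77.2 CPM with si033. Neither group separated from the control. The log2 fold change was -0.12 with si025 (95% interval -0.24 to 0.002, adjusted p = 0.082) and 0.06 with si033 (95% interval -0.06 to 0.18, adjusted p = 0.39). With si025 the test passed without si025 replicate 2 (-0.15) or control replicate 3 (-0.17). Between the siRNAs the log2 difference of -0.18 passed (SE 0.06, adjusted p = 0.009), but not without si025 replicate 3 (-0.14, adjusted p = 0.074).

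CAB39 (chr2:230712842-230821075, plus strand), the MO25 scaffold, rose with both siRNAs. It was at 126.9, 133.7 and 135.0 CPM in the control, 149.0, 156.6 and 162.6 CPM with si025 and 138.1, 153.4 and 150.0 CPM with si033, with all 6 knockdown libraries above the control. On the log2 scale it was 0.24 higher with si025 (SE 0.05, adjusted p = 8.7e-05) and 0.16 higher with si033 (SE 0.05, adjusted p = 0.0078). The siRNAs were not distinguished (log2 difference 0.09, 95% interval -0.01 to 0.18, adjusted p = 0.13). Of STK11, STRADA and CAB39, it was the gene called higher with both siRNAs, by 1.18-fold and 1.12-fold beside 3.70-fold and 3.74-fold for STRADB.

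Levels per kilobase of exon allow the genes to be set in order, for the merged exon length that came with the counts. That length exceeds the canonical transcript for CAB39 (7691 against 3829 bases), STRADA (3289 against 2166) and STK11 (3826 against 3293). The order of CAB39 and STK11 and the size of the ratios between paralogs therefore depend on the length used. In the control the order from low to high was QPCT at 3.07 ± 0.34, STRADB at 3.77 ± 0.41, QPCTL at 5.01 ± 0.19, STRADA at 5.22 ± 0.21, CAB39 at 17.2 ± 0.57 and STK11 at 19.8 ± 1.45 CPM per kilobase (SD, n = 3). The QPCT libraries (2.72 to 3.41) lay just below those of STRADB (3.53 to 4.25), and those of QPCTL and STRADA overlapped. With si025 QPCT reached 14.2 ± 0.76 and STRADB 13.8 ± 0.84, and with si033 they reached 12.2 ± 1.5 and 13.8 ± 0.58. In both knockdown groups QPCT and STRADB overlapped each other and stood above QPCTL (4.27 ± 0.22 and 5.49 ± 0.20) and STRADA (5.47 ± 0.37 and 6.01 ± 0.23), and below STK11 and CAB39. Both genes therefore passed their paralogs. The ratio of STRADB to STRADA per length was 0.85, 0.68 and 0.65 in the control libraries, 2.503, 2.317 and 2.758 with si025 and 2.30, 2.29 and 2.30 with si033. The ratio of QPCT to QPCTL was 0.53, 0.71 and 0.61 in the control, 3.46, 3.21 and 3.29 with si025 and 2.07, 2.53 and 2.07 with si033. Both ratios were higher in every si025 library than in any si033 library, for STRADB to STRADA only narrowly (lowest si025 value 2.317, highest si033 value 2.304).

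The other genes of the LKB1 and AMPK pathway were taken from lists of 51 genes without STRADB, of which 50 were tested and PRKAG3 was too low. With si025 19 were higher and 6 lower (50% called, against 61.9% of all tested genes, split into 33.0% higher and 28.9% lower). With si033 15 were higher and 11 lower (52%, against 55.0%, or 27.1% higher and 27.9% lower). The median log2 fold change of the list was 0.07 with si025 and 0.04 with si033, beside 0.02 and 0.003 over all tested genes. The shares called were thus near the background. Both siRNAs raised 7 of the 50 (14%, against 15.2% of all genes), namely CAB39, MARK1, SIK2, TSC2, CRTC3, PPARGC1A and STK26. Both lowered 2 of the 50, among them TBC1D4 (14.6% of all genes were called lower with both). PRKAB1, BRSK1, PFKFB2, STK25, STK39 and BIRC3 were called in opposite directions. The share of all tested genes called in opposite directions was not computed, so no more is read from these. None of the 50 was 2-fold higher with both siRNAs, as STRADB, chosen for its rise, was. A rise of that size was rare: in the classes of genes set out below, 1.06% to 3.11% had it. Its absence among 50 genes therefore says little about the pathway.

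Within the complex CAB39L, the second MO25 gene, fell with si025 (-0.20, SE 0.04, adjusted p = 0.00016) and had -0.05 with si033 (adjusted p = 0.35). Among 6 AMPK subunits tested, si025 raised 3 (33.0% of all tested genes were higher), PRKAA2 (0.73, SE 0.09), PRKAB1 (0.39, SE 0.07) and PRKAG2 (0.40, SE 0.06), which encode a catalytic, a scaffold and a nucleotide-binding subunit. With si033, which raised 27.1% and lowered 27.9% of all tested genes, PRKAB2 rose (0.23, SE 0.06) and PRKAB1 fell (-0.29, SE 0.07). PRKAA1 and PRKAG1, at 242 and 94.1 CPM in the control, passed with neither.

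Of the 12 AMPK-related kinases, si025 raised 6 and lowered none (33.0% and 28.9% of all tested genes), and si033 raised 4 and lowered 2 (27.1% and 27.9%). MARK1, a kinase of microtubule-associated proteins, rose by 0.58 with si025 and 0.54 with si033 (SE 0.07 each; log2 difference 0.04, 95% interval -0.10 to 0.17). SIK2, a salt-inducible kinase that phosphorylates the CRTC coactivators, rose more with si033 (0.63, SE 0.06) than with si025 (0.18, SE 0.06; adjusted p of the difference 1.6e-07). BRSK1, a kinase of neuronal polarity, rose with si025 (1.32, SE 0.09) and fell with si033 (-0.28, SE 0.11). NUAK1 had 2.07 (SE 0.32) with si033 and 0.82 (SE 0.38, adjusted p = 0.061) with si025, on 4 to 8 counts per control library.

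Of 15 AMPK substrates and effectors, si025 raised 6 and lowered 2 (33.0% and 28.9% of all tested genes), and si033 raised 3 and lowered 5 (27.1% and 27.9%). CRTC3, a coactivator of CREB, rose by 0.76 with si025 and 0.77 with si033 (SE 0.05 each; 95% interval of the difference -0.10 to 0.09). The transcriptional coactivator PPARGC1A rose by 1.46 (SE 0.23) and 0.78 (SE 0.25), and TSC2, a brake on mTORC1, by 0.25 and 0.20 (SE 0.06 each). TBC1D4, a regulator of glucose transporter traffic, fell with both siRNAs (-0.41 with each, SE 0.06). ACACA, an acetyl-CoA carboxylase, varied between 2.01 and 7.42 CPM within the si033 group and was not called.

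The 3 other AMPK-activating kinases were not called with si025, with which 61.9% of all tested genes were called. With si033, with which 55.0% were called, CAMKK2 (0.12) and MAP3K7 (0.22) rose and CAMKK1 fell (-0.65, SE 0.06). The lists in this paragraph hold 3 or 5 genes each, too few to be set apart from all tested genes. Among 5 further kinases that bind MO25, STK26 rose with both siRNAs (0.33 and 0.22, SE 0.07 each), STK25 and STK39 fell with si025 and rose with si033, OXSR1 fell with si033 (-0.37, SE 0.05) and STK24 was not called. STRADB is also known as a partner of the apoptosis inhibitor XIAP. XIAP had -0.06 (95% interval -0.20 to 0.08) and 0.02 (95% interval -0.12 to 0.16). BIRC3, a related inhibitor, rose with si025 (0.56, SE 0.07) and fell with si033 (-0.81, SE 0.08), BIRC2 rose and TAB1 fell with si025, and MAPK8 was not called.

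Beside QPCT, 17 genes of pyroglutamate metabolism and cyclase substrates were listed and 9 were tested; PGPEP1L, CCL7, CCL8, CCL13, CX3CL1, TRH, GAST and NTS were too low. Of the 9, si025 raised 5 and lowered 2 (77.8% called, against 61.9% of all tested genes), and si033 raised 3 and lowered 1 (44.4%, against 55.0%). The list's median log2 fold change was 0.33 with si025 and 0.07 with si033, beside 0.02 and 0.003 over all tested genes. Both siRNAs raised 3 of the 9 (33.3%, against 15.2% of all tested genes), a share that rests on few genes. These were PGPEP1, which removes N-terminal pyroglutamate (0.87, SE 0.09, and 0.51, SE 0.10), CD47 (0.33 and 0.27, SE 0.06 each) and APP, the amyloid precursor (0.92, SE 0.04, and 0.21, SE 0.04). CD47 did not differ detectably between the siRNAs (log2 difference 0.06, 95% interval -0.05 to 0.17), whereas APP and PGPEP1 rose more with si025 (by 0.70 and 0.36, adjusted p = 1.6e-15 and 0.00063). CCL2, a chemokine with N-terminal pyroglutamate, rose with si025 (0.87, SE 0.17) and had -0.35 with si033 (adjusted p = 0.13). OPLAH, which hydrolyses free 5-oxoproline, rose with si025 (0.38, SE 0.07) and fell with si033 (-0.22, SE 0.08). GGCT, which releases 5-oxoproline, fell with si025 (-0.23, SE 0.05), and GGACT and GNRH1 were not called against the control.

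**Figure D3:**
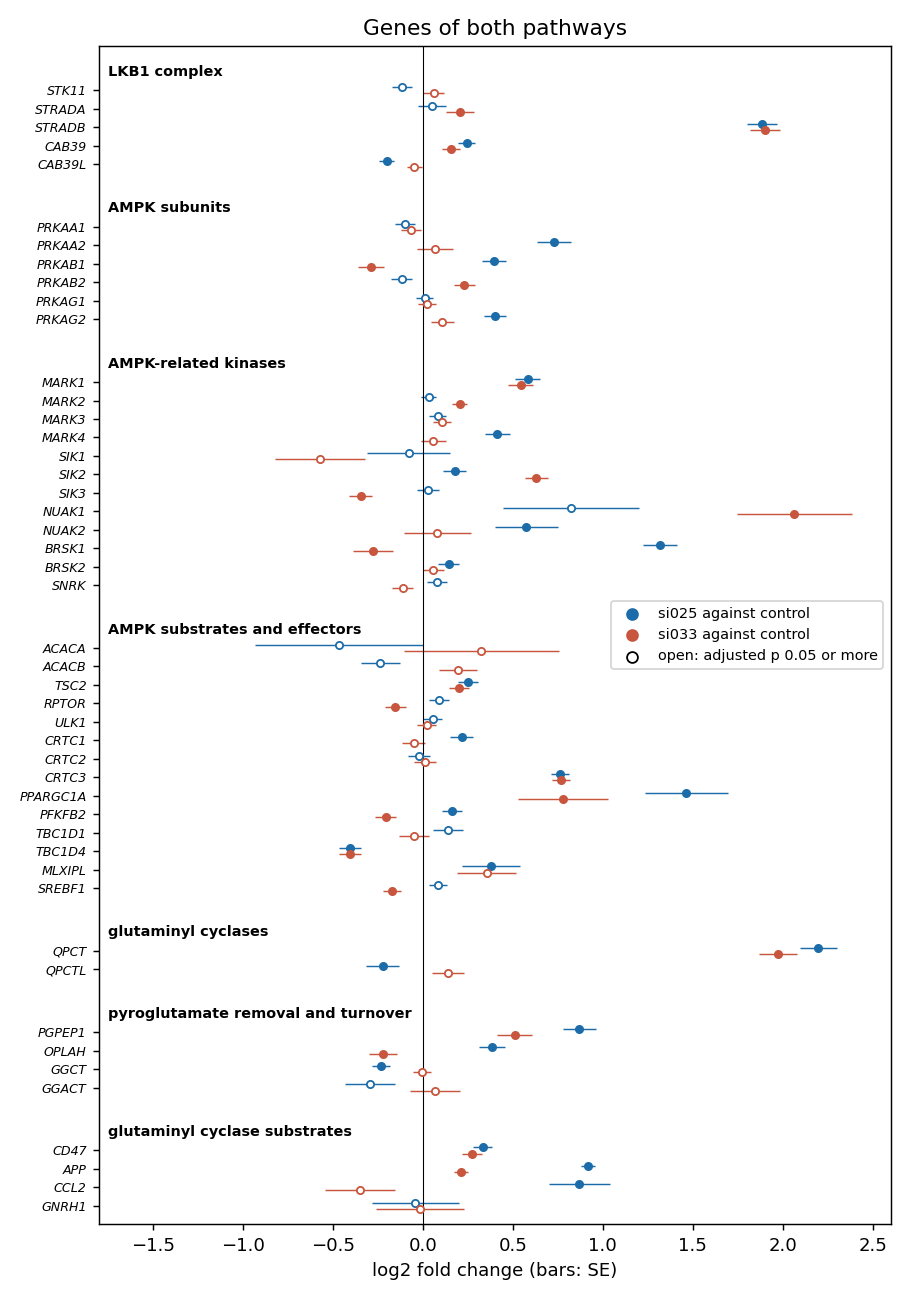
Log2 fold changes against control (horizontal axis, bars of 1 SE) are drawn for tested genes of 7 groups, blue for si025 and red for si033, filled where the adjusted p was under 0.05; QPCT and STRADB were chosen on these values. Apart from QPCT, STRADB and NUAK1, the values for si033 stay below 1, and the blue and red points fall on opposite sides of 0 for PRKAB1, BRSK1, PFKFB2 and OPLAH, each called in both directions.

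Genes next to QPCT and STRADB moved less. Of the 3 nearest tested genes on each side of QPCT, PRKD3, 19.8 kb away, rose by 0.63 with si025 and 0.22 with si033, and CDC42EP3, 269 kb away, by 0.60 and 0.42. CYP1B1 fell (-1.15 and -0.97) and so did CEBPZ (-0.23 and -0.14), while NDUFAF7 and RMDN2 were not called. Next to STRADB, TRAK2 starts 73 bases away on the opposite strand, head to head with it, and rose by 0.32 with si025 and 0.13 with si033. CASP8 fell with si025 (-0.37, adjusted p = 0.00014) and had 0.11 with si033, ALS2CR11 fell with si033 (-0.33), and ALS2CR12 and TMEM237 were not called. Of the 12 neighbours tested, 3 were raised by both siRNAs, beside 15.2% of all tested genes. None of them rose by 2-fold with both, as 1.06% to 3.11% of genes did in the classes set out below. With 12 genes these counts do not set the neighbours apart from other genes.

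The genes whose log2 CPM over the 9 libraries was most like that of QPCT by Pearson's r included SLAIN2, AMER3, SYT17, VANGL1, GDAP2, WDR82, GATS, USP16 and ARIH1, with r from 0.990 to 0.997. For STRADB they included KALRN, CRTC3, FAM222B, FUT8, CAPN2, PIP4K2A, DLGAP1 and VANGL1, with r from 0.992 to 0.995. VANGL1 appeared for both. The values of r describe 9 points in 3 groups that share their libraries, and 292 and 272 genes exceeded 0.95 for QPCT and STRADB. QPCT and STRADB had r = 0.978 with each other. Most of these genes changed less than the pair: SLAIN2, a microtubule plus-end protein, had log2 fold changes of 1.41 with si025 and 1.28 with si033. CAPN2, a calpain protease, had 1.55 and 1.45, FAM222B had 0.87 and 0.94, and WDR82 had 0.33 and 0.29.

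The study's list of oligonucleotides gives a negative control siRNA and a pair of siRNAs against IGF1R-AS1; the labels do not say which of the pair is si025, nor that this control was the one used in these libraries. The duplexes are shown because si025 and si033 were both read against the control. In the listed (sense) strands, the capitals mark the bases that pair with bases 2 to 8, the seed, of the complementary strand; in the complementary strand of the control they mark that seed.
Negative control, listed strand: uagcgacuaaaCACAUCAa
Negative control, complementary strand: uUGAUGUGuuuagucgcua
IGF1R-AS1-siRNA-1#, listed strand: agaaagcacugAAGACCUauu
IGF1R-AS1-siRNA-2#, listed strand: ccguauugcucAGUGGAAauu

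A transcript that holds the word CACATCA, on its own strand, can pair with the seed of the control's complementary strand. Of 12083 tested genes with a 3′UTR in the GENCODE canonical transcript, 1416 (11.7%) held it there, but none of the 6 genes did. Its 6-base part ACATCA, in the 3′UTR of 32.21% of genes, had 2 copies in that of STRADB and 1 in that of CAB39. The search for CACATCA was then extended to the coding sequence, a step chosen after the 3′UTR result was seen. There 1740 of the 12083 (14.4%) held it. QPCT, STRADB and STRADA each had 1 copy in the coding sequence, and QPCTL, STK11 and CAB39 had none. Among coding sequences of similar length, 249 of 2778 (8.96%) held the word for QPCT, 322 of 3053 (10.5%) for STRADB and 344 of 3137 for STRADA. The sites are shown in 30 bases of transcript with the word in capitals.
QPCT, exon 3 of 7, word at chr2:37359580-37359586, plus strand: ctgctcgtcagCACATCAtgcagcgaattc
STRADB, exon 8 of 12, word at chr2:201477748-201477754, plus strand: ccacagttcagCACATCAgtgcagccgtgg
STRADA, exon 7 of 13, word at chr17:63710741-63710747, minus strand: ctgtgggttgtCACATCAttcatggcatac

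In QPCT part of the bases before the word come from the preceding exon. Set against the 19 bases of the listed control strand, 11 matched at the QPCT site and 10 at the STRADB and STRADA sites. These counts include the word itself, which matches by definition. No such count was made at the sites of other genes, so the matches are not read as added pairing. The longest run shared by the QPCT and STRADB sites was tcagCACATCA, of 11 bases. The listed control strand has uaaa, not tcag, before the word. In all, 19 of 12083 transcripts (0.157%) held the run, with QPCT and STRADB among them. With these chosen genes included, the 19 had median log2 fold changes of 0.20 with si025 and 0.32 with si033. The run was defined from these sites, so no conclusion is drawn from its rarity. STRADA, with a copy of the word, had 0.05 and 0.20.

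**Figure D4:**
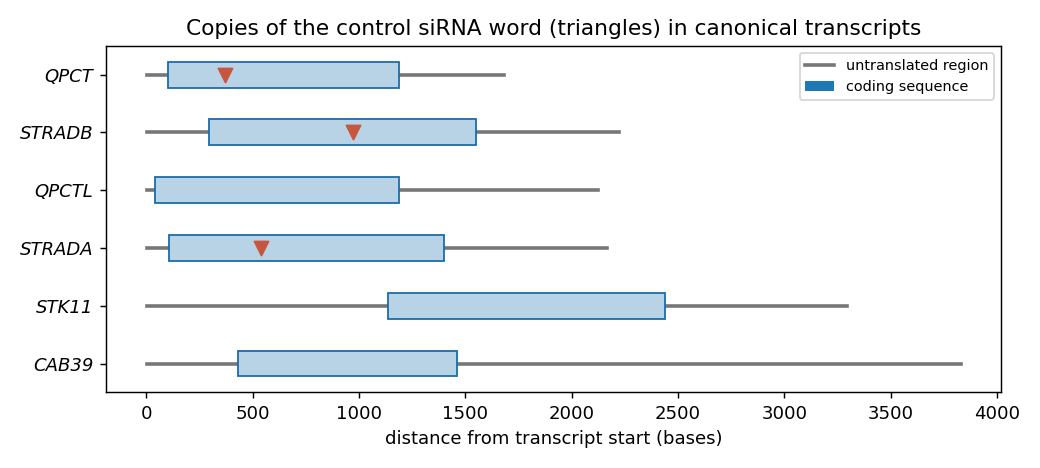
The canonical transcripts of the 6 genes are drawn to scale in bases from the transcript start, with the coding sequence as a box and the untranslated regions as a line, and a triangle at each copy of the word CACATCA. QPCT, STRADB and STRADA carry 1 triangle each inside the box, and no gene carries a triangle in its 3′UTR.

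The share of genes with the word differed with the way that likeness was measured. Beside 11.7% of all matched genes with the word in the 3′UTR and 24.4% with it in either region, of the 9 genes most like QPCT with a canonical transcript, 7 held it in the 3′UTR, and of the 10 most like STRADB 6 held it there and 2 more only in the coding sequence. By distance of log2 fold changes in place of r, 3 of the 10 genes most like QPCT held it in the 3′UTR (median length 609 bases), STRADB only in the coding sequence and 6 in neither, and for STRADB 7 of 10 held it in the 3′UTR and 1 only in the coding sequence. Of the 8 other genes among the 10 most evenly raised, 5 (TMCO1, LRP4, MDK, JAZF1 and RAB6B) held it in the 3′UTR and FBN2 in the coding sequence, leaving SLCO3A1 and SCRN1. All these lists were drawn from the same libraries by the trait that chose QPCT and STRADB. Their shares are therefore a description and no conclusion is drawn from them. The 3′UTRs of the genes most like QPCT by r were long, with a median of 3476 bases against 1374 over all matched genes, and longer sequences hold any word more often. The same limit holds for the genes most like STRADB, with medians of 2318 bases by r and 2093 by distance. It also holds for the 8 other evenly raised genes, with 2244. Over all matched genes, those with the word in the 3′UTR had medians of 0.16 with si025 and 0.13 with si033. Genes with it only in the coding sequence had 0.06 and 0.04, and genes with it in neither had -0.005 and -0.02. Of the first class 44 of 1416 (3.11%) were 2-fold higher with both siRNAs, of the second 19 of 1534 (1.24%) and of the third 97 of 9133 (1.06%). The 19 of the second class include QPCT and STRADB, which were chosen for their rise. The classes were not matched for 3′UTR length, and no word of another strand was put through the same comparison. No conclusion on the word is drawn from their order. Whether the word has any part in the levels of QPCT or STRADB was not tested.

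Words of the other strands were also searched in the 3′UTRs of the 6 genes. STRADB and STRADA held TGCTTTC, paired by the listed strand of IGF1R-AS1-siRNA-1#, which 21.0% of genes held. QPCTL held AAGACCT (11.4%), paired by its complementary strand, and CAB39 held AGTGGAA (16.0%), paired by the complementary strand of IGF1R-AS1-siRNA-2#. QPCT and STK11 held none of them, and CAATACG (1.399%) and AGTCGCT (1.80%), the words of the remaining strands, were in the 3′UTR of none of the 6. Before the 3′UTR, STRADB had 1 copy of the word of the listed control strand. There STRADB and STRADA each had 1 of the word paired by the complementary strand of IGF1R-AS1-siRNA-2#. CAB39 had 1 of that paired by the complementary strand of IGF1R-AS1-siRNA-1#. Such copies were thus not particular to CACATCA, though QPCT held no other of these words there. The 6-base part of AGTGGAA had 2 copies in the 3′UTR of QPCT and of CAB39. The E-box CACGTG, which reads the same on both strands and is found in 7.26% of 35116 promoters of 300 bases (RefSeq, GRCh38.p14), was not in the promoters matched for QPCT, STRADB, QPCTL, STK11 and CAB39.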

How the data were processed

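Total RNA of VCaP cells (1.3 µg per library) was prepared with a stranded total RNA kit; the labels name a Promega extraction kit and the study's methods a Qiagen kit. The authors aligned paired reads to GRCh38 with HISAT2 2.1.0 and deposited raw fragment counts per gene made with featureCounts 1.5.2 over exons, reverse stranded, with an annotation the file headers call RefSeq and the methods call GENCODE. From the deposited counts of 9 libraries, genes were filtered with filterByExpr and fitted in edgeR 4.0.16 (R 4.3.3; TMM, robust quasi-likelihood, 3 group means), with Benjamini-Hochberg adjustment over 12810 genes and a threshold of 0.05. This used the tool and threshold of the study. The biological coefficient of variation was 4.13%. CPM are TMM-scaled; levels per kilobase use the files' exon lengths. The fit was tested on simulated data. Replicates differed by more than sampling noise (chi-square per degree of freedom 1.69 to 4.90). Same-numbered replicates did not deviate together (r from -0.02 to 0.07), so no block was used.

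The members and lists were chosen with earlier results of these data known. Named were the 6 genes, every gene of the pathway lists, the 3 nearest tested genes on each side of QPCT and STRADB, the 10 genes of highest Pearson r (log2 CPM, prior count 2) to each, and the 10 with the largest smaller log2 fold change among genes called higher with both siRNAs within 0.25. Canonical transcripts of GENCODE gave a 3′UTR for 94.3% of tested genes. DESeq2 1.42.0, other scalings and filters, 2-group fits, a replicate block and leaving out each library were alternatives. Some genes that this rule names are not reported here.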

Additional observations from a re-analysis of the deposited data

Results flagged for a closer look

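Of the 4 genes compared with QPCT and STRADB, the response to si025 and to si033 was told apart by test for QPCTL (-0.362) and STK11 (-0.178) on the log2 scale, si025 against si033, in both cases with si025 the lower. Their log2 fold changes against the control, all of them small, are given above with the libraries on which they rest. Of all tested genes, 61.0% were told apart in the same way, so a difference between the siRNAs is not particular to these genes.

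Among the other genes of the LKB1 complex and of AMPK, si025 was above si033 for PRKAA2 (0.663), PRKAB1 (0.685) and PRKAG2 (0.295) and below it for CAB39L (-0.154) and PRKAB2 (-0.347). PRKAB1, a scaffold subunit, was called in opposite directions against the control. Among the AMPK-related kinases si025 was above si033 for MARK4 (0.356), SIK3 (0.374), NUAK2 (0.494), BRSK1 (1.59) and SNRK (0.189), and below it for MARK2 (-0.174), SIK2 (-0.453) and NUAK1 (-1.24), which had few counts. The difference for BRSK1 was the largest of these 8 values. Among the substrates and effectors si025 was above si033 for RPTOR (0.242), CRTC1 (0.268), PPARGC1A (0.684), PFKFB2 (0.37), TBC1D1 (0.19) and SREBF1 (0.256), and below it for ACACB (-0.432). The PPARGC1A libraries of the siRNA groups overlapped. Among the other kinases and partners si025 was above si033 for CAMKK1 (0.597), OXSR1 (0.292), BIRC2 (0.205) and BIRC3 (1.36) and below it for CAMKK2 (-0.145), MAP3K7 (-0.314), STK25 (-0.337) and STK39 (-0.408). BIRC3, STK25 and STK39 were called in opposite directions against the control. Among the genes around glutaminyl cyclase si025 was above si033 for PGPEP1 (0.359), OPLAH (0.606), APP (0.705) and CCL2 (1.22) and below it for GGCT (-0.228) and GGACT (-0.362). Among the neighbours on the chromosome si025 was above si033 for PRKD3 (0.406), CDC42EP3 (0.182) and TRAK2 (0.193) and below it for CASP8 (-0.477).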

How the results depend on the processing

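The values of QPCT and STRADB changed little: over 6 other settings and leaving out each of 9 libraries, the log2 fold change of QPCT was 2.14 to 2.26 with si025 and 1.89 to 2.04 with si033, and that of STRADB 1.83 to 1.96 and 1.85 to 1.98. Of the values recomputed under an alternative, 426 stayed the same, 15 moved, 12 lost a call and 3 gained one, and none reversed. For the compared genes, staying the same meant an unchanged direction and call, whatever the size. For counts of called genes it meant a count within a set factor of the main count, and for other values a size within a set spread. For QPCTL with si025 the log2 fold change was -0.2028 with upper quartile scaling (adjusted p = 0.053), -0.2403 with DESeq2 (adjusted p = 0.077) and -0.2276 with no filter on low counts (adjusted p = 0.05003), none of which passed, and -0.2721 to -0.2014 when a library was left out. STRADA with si033 had 0.1998 with DESeq2 (adjusted p = 0.088), and 0.1635 to 0.2479 without a library. STK11 with si025 passed when only the 6 libraries compared were fitted (-0.1319, adjusted p = 0.039), and ranged from -0.1716 to -0.06337 without a library; between the siRNAs it ranged from -0.2115 to -0.1395. The causes were not tested, beyond the fewer libraries fitted. The share of genes with the control word in the 3′UTR, 11.7%, was 14.15% over all protein-coding transcripts, 32.21% for a 6-base word and 14.4% in the coding sequence, the last chosen after seeing the data. Ranking genes by distance of log2 fold changes shared 0 of the 10 most like QPCT and 0 of the 10 most like STRADB. Same-numbered replicates were not paired (r -0.02 to 0.07, others -0.12 to 0.11). A fit with the replicate number as a block called 8024 genes with si025 and 7115 with si033, gave log2 fold changes of 2.20 and 1.98 for QPCT and 1.89 and 1.90 for STRADB, and changed no call of the 6 genes. Depth limits NUAK1, with 4 to 8 counts per control library, and genes that were not tested.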
